A study of Homo sapiens with 16 samples.

Results

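The effect of iASPP siRNA was read in HCT116 cells, an epithelial colon cancer line, that already had p53 siRNA and nutlin. The libraries were chosen by their column names, p53+iASPP siRNA+nutlin replicates 1 and 2 against p53 siRNA+nutlin replicates 1 and 2, which are 4 of 16 libraries. HCT116 carries wild-type p53 per the labels, and all 4 libraries come from cells with p53 siRNA for 3 days and nutlin for a further 0.5 days, so the iASPP siRNA is the labelled difference. The 6 other groups of 2 libraries are CTR siRNA and iASPP siRNA, each with and without nutlin, and, without nutlin only, p53 siRNA and p53+iASPP siRNA. The sources used here state neither the nutlin dose nor the siRNA sequences and their number, so effects of losing iASPP and effects of these siRNAs on other transcripts cannot be told apart. Nothing in the labels says that replicates were grown separately, and the p-values then measure a spread between libraries that may be technical.

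iASPP, the inhibitory member of the ASPP family, is encoded by PPP1R13L and is known to bind p53 and to restrain its transcriptional activity. It was first described as an inhibitor of RelA, a subunit of NF-kB, and can act without p53. Nutlin occupies the pocket of MDM2 that binds p53, and so stabilises p53. The p53 siRNA is meant to leave little p53 for either nutlin or iASPP to act on. The comparison therefore asks what iASPP siRNA changes when p53 siRNA and nutlin are present.

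The deposited table holds FPKM (fragments per kilobase of transcript, scaled to the library total) for 20271 genes. Tests used the 10662 genes that averaged 1 FPKM or more across the 16 libraries. Relative sequencing depth, read from the steps of the low values with p53 siRNA+nutlin replicate 1 as 1, was 0.697 to 1.12 in the replicate 1 libraries and 3.10 to 6.50 in the replicate 2 libraries. Summed over 12 epithelial markers, the 4 libraries held 3211 to 3406 FPKM. The 10 leukocyte markers summed to 0.154 to 3.70 FPKM, with 4 at 0 in all 4 libraries, and the 10 fibroblast and endothelial markers to 0.586 to 1.26 FPKM, with 3 at 0.

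The iASPP siRNA lowered its target. PPP1R13L (ENSG00000104881, minus strand of GRCh38 chromosome 19, 45379634 to 45406349) stood at 0.378 and 2.45 FPKM in replicates 1 and 2 with both siRNAs and nutlin, and at 16.8 and 14.9 FPKM with p53 siRNA and nutlin. All 8 libraries with iASPP siRNA lay between 0.279 and 2.45 FPKM, below the 6.88 to 18.9 FPKM of the 8 libraries without it. The mean fell from 15.9 ± 1.37 to 1.41 ± 1.46 FPKM (SD, n = 2), which is 8.91% of the level without iASPP siRNA (log2 change -2.95 ± 0.36 standard error, limma adjusted p = 0.0486). The replicate 1 pair differed by -3.69 and the replicate 2 pair by -2.20 on the log2(FPKM + 1) scale used throughout. Standard errors and limma p-values come from a spread shared by all 8 groups, most of which had closer replicates than the compared groups. They can therefore understate the spread in this comparison. PPP1R13L did not pass with sample weights by group or in the fit of the compared groups alone. PPP1R13L passed the threshold of 0.05 in 3 of 23 alternative settings, with an adjusted p from 0.002 to 1 and a log2 difference from -3.85 to -2.29. In bulk RNA, fewer cells that express a gene and less RNA per cell cannot be told apart.

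Other members of the p53 and ASPP families gave low values. TP73, a relative of p53, was at 1.44 and 1.62 FPKM with both siRNAs and at 2.09 and 1.47 FPKM with p53 siRNA. TP53BP2, which encodes the activating relative ASPP2, was at 4.02 and 4.75 FPKM against 4.74 and 4.65 FPKM, and its libraries overlapped.

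**Figure D1:**
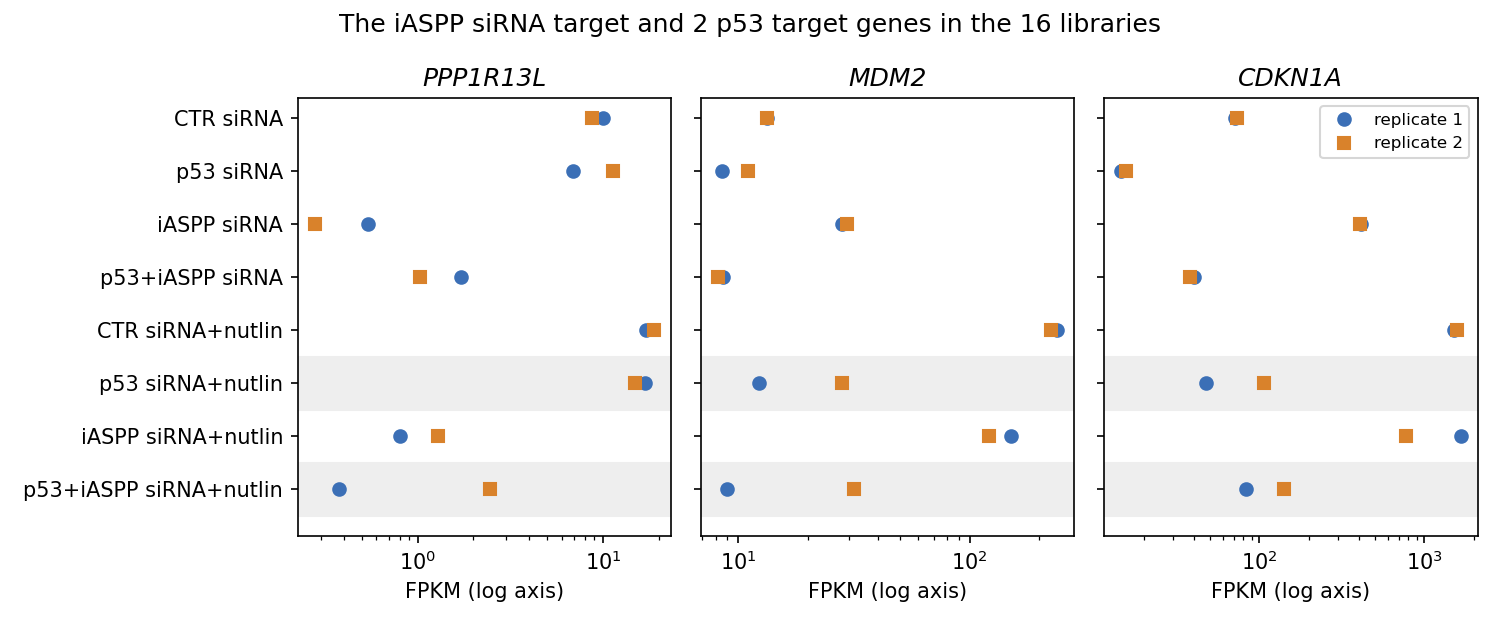
FPKM on a log axis of PPP1R13L, MDM2 and CDKN1A in all 16 libraries, with replicate 1 as blue circles, replicate 2 as orange squares, and the 2 compared groups shaded. PPP1R13L is between 0.279 and 2.45 FPKM in every iASPP siRNA library, and in both shaded groups replicate 2 has more MDM2 and CDKN1A than replicate 1.

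The replicates of both groups stood further apart than most. Over 799 genes of at least 100 FPKM replicates differed by a median of 0.180 on the log2 scale with both siRNAs, 0.192 with p53 siRNA and 0.272 with iASPP siRNA, all with nutlin, and 0.0506 to 0.0693 in the 5 other groups. Over the 10662 tested genes, p53+iASPP siRNA+nutlin replicate 2 had its highest correlation with p53 siRNA+nutlin replicate 2 (0.990) and correlated at 0.975 with its own replicate. For p53 siRNA+nutlin replicate 2 the same 2 values were 0.990 and 0.972. Likeness thus followed the replicate number in these 2 libraries, not the siRNA, but they were not alone in this. CTR siRNA replicate 2 also correlated most with p53+iASPP siRNA+nutlin replicate 2, at 0.986 against 0.98 with its own replicate. For p53 siRNA replicate 2 the closest was CTR siRNA replicate 2, at 0.984 against 0.977. All replicate 2 libraries were sequenced deeper, and the part of depth in these correlations was not tested.

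Direct p53 target genes differed between the replicates of both groups. MDM2, the E3 ligase gene of the p53 feedback loop, was at 8.95 and 31.5 FPKM in replicates 1 and 2 with both siRNAs and at 12.3 and 28.2 FPKM with p53 siRNA. CDKN1A, which encodes the CDK inhibitor p21, was at 83.1 and 141 FPKM with both siRNAs and at 47.4 and 107 FPKM with p53 siRNA. In each group replicate 2 was higher, and the groups overlapped for both genes. Of 124 tested p53 activated targets, replicate 2 was higher than replicate 1 for 96 with both siRNAs (median log2 difference 0.31) and for 95 with p53 siRNA (0.26), where over all genes the medians were 0.113 and -0.036. Replication-dependent histone genes, transcribed in S phase, went the other way in both groups: replicate 2 was higher for 1 of 16 with both siRNAs (median -0.92) and for 0 of 16 with p53 siRNA (-1.46). HIST1H3B was at 674 and 169 FPKM with both siRNAs and at 503 and 126 FPKM with p53 siRNA. HIST1H4C was at 558 and 146 FPKM and at 434 and 78.5 FPKM, although near-identical histone copies make single values uncertain. Polyadenylated RNA was sequenced, and the part of that selection in the values of these histone genes was not tested. The unnamed locus AL034430.2 was listed at 0 in both replicate 1 libraries and at 235 and 138 FPKM in the replicate 2 libraries. It was also at 183 FPKM in iASPP siRNA+nutlin replicate 2, and at 0 in all 13 others. The part of p53 activity, of the cell cycle genes or of the library in the differences between the groups was not tested.

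For these reasons most genes of the comparison are given by the FPKM of each replicate, and some differences also for each replicate pair. Over all genes the median difference between the groups was -0.092 in the replicate 1 pair and 0.058 in the replicate 2 pair, and -0.015 for both. Across the 10662 genes the differences of the 2 pairs correlated at 0.083, and at 0.062 across the 3043 genes of at least 20 FPKM. These are descriptions across genes, which share the 4 libraries and are not independent. The median standard error of a log2 difference was 0.20 over all genes and 0.17 over 4756 genes of at least 10 FPKM.

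Across all genes, iASPP siRNA in p53-depleted nutlin-treated cells changed 1 gene past the threshold, PPP1R13L, which is 0.00938% of those tested by limma with Benjamini-Hochberg adjustment. At an unadjusted p under 0.05 there were 495 (4.64%), 234 of them higher (2.19%) and 261 lower (2.45%). Both libraries with both siRNAs lay above both with p53 siRNA for 1389 genes (13.0%) and below for 1369 genes (12.8%), and 27 and 43 of these differed at least 2-fold. The gene next after PPP1R13L was RPL17-C18orf32, at 3.23 and 4.94 FPKM against 12.6 and 11.4 FPKM (log2 difference -1.37 ± 0.19, limma adjusted p = 0.0989). This is a readthrough of neighbouring RPL17 and C18orf32, so its value depends on how shared reads were assigned. All other genes had an adjusted p of at least 0.961. The genes below are therefore described by their values, and none of them passed.

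**Figure D2:**
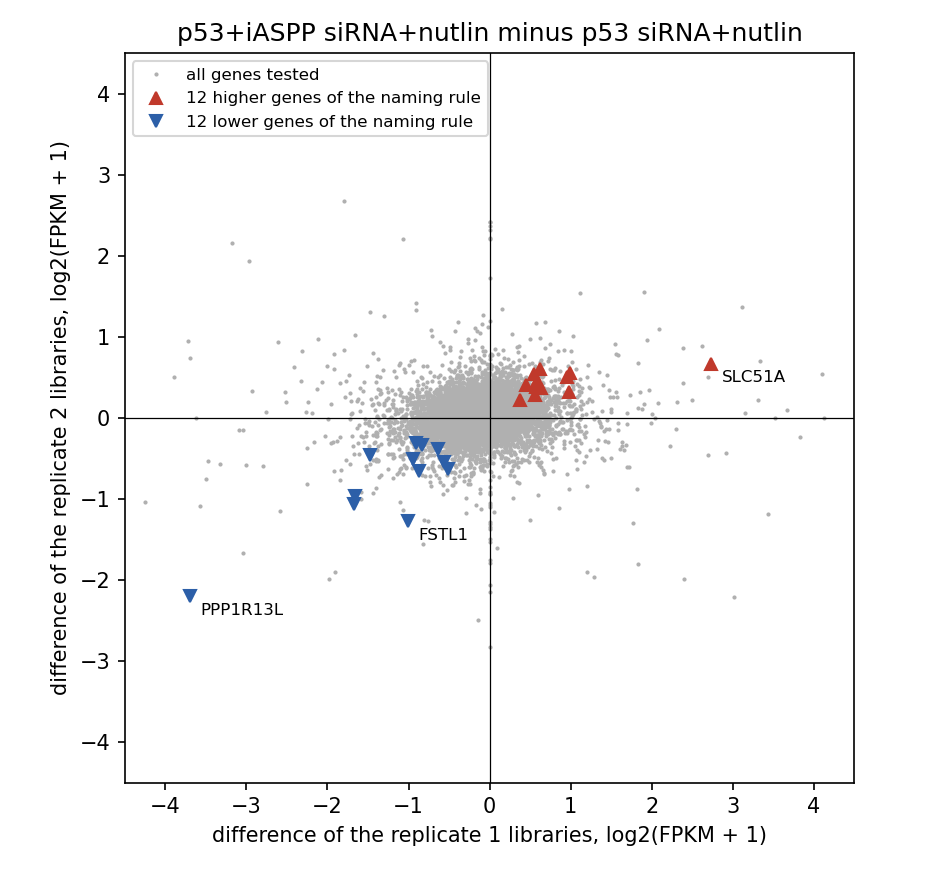
Difference between p53+iASPP siRNA+nutlin and p53 siRNA+nutlin in the replicate 1 libraries (horizontal) and in the replicate 2 libraries (vertical), in log2(FPKM + 1), for all tested genes, with 10 genes outside the axes at 4.5. The 24 coloured genes were chosen for not overlapping, so they lie in the 2 corners where the pairs share a sign; the cloud of all genes shows a correlation of 0.083.

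Among the 12 lower genes of the naming rule, FSTL1 (ENSG00000163430, chromosome 3 from 120392293 to 120451253, minus strand), which encodes the secreted glycoprotein follistatin-like 1, was at 0.374 and 0.682 FPKM with both siRNAs and at 1.77 and 3.08 FPKM with p53 siRNA (log2 difference -1.14 ± 0.23). Its level was low in all 4 libraries and the groups did not overlap. KRT23 (ENSG00000108244), an epithelial type I keratin gene, was at 17.3 and 16.7 FPKM against 25.9 and 24.8 FPKM (-0.55 ± 0.11). The 2 replicate pairs of KRT23 differed by nearly the same amount, -0.56 and -0.55. AREG (ENSG00000109321, chromosome 4 from 74445134 to 74455009, plus strand), the gene of the EGF receptor ligand amphiregulin, was at 224 and 312 FPKM against 398 and 394 FPKM (-0.58 ± 0.14). Here the replicate 1 pair differed more, by -0.83 against -0.33. RPL35A, a large ribosomal subunit protein gene, was at 638 and 1250 FPKM against 2025 and 2432 FPKM (-1.31 ± 0.31), the largest difference among the genes of the rule with over 100 FPKM. AKIRIN1, which encodes a nuclear protein, was at 23.2 and 25.4 FPKM against 33.5 and 39.9 FPKM, and TAF11, a TFIID subunit gene, at 9.74 and 12.8 FPKM against 19.2 and 16.03 FPKM. The MAP kinase phosphatase gene DUSP7 was at 1.72 and 2.75 FPKM against 4.22 and 4.34 FPKM. FAM103A1, which encodes an activator of the mRNA cap methyltransferase, was at 8.18 and 12.02 FPKM against 15.7 and 19.5 FPKM. The tRNA dihydrouridine synthase gene DUS4L and the ubiquitin ligase gene ZNRF1 complete the 12, with log2 differences of -0.97 and -0.51. The replicate 1 and replicate 2 pairs differed by -1.48 and -0.46 for DUS4L and by -0.64 and -0.39 for ZNRF1.

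PPP1R13L, FSTL1 and AREG were lower with iASPP siRNA in each background of the study, as were others of these lower genes. The promoter windows of the siRNA target and of the 2 others, which were picked by hand, are shown. They are RefSeq sequences on GRCh38.p14, each from 250 bases before to 50 after the annotated start and read on the gene's strand. The windows are chr19:45406312-45406611 for the first of 2 PPP1R13L starts, chr3:120450943-120451242 for FSTL1 and chr4:74444886-74445185 for AREG. Capitals mark matches on either strand to a TATA box (TATAAA), a cyclic AMP response element (TGACGTCA), an AP-1 site (TGANTCA), an E-box (CACGTG) or a p53 half-site, motifs that do not overlap in these windows.
PPP1R13L: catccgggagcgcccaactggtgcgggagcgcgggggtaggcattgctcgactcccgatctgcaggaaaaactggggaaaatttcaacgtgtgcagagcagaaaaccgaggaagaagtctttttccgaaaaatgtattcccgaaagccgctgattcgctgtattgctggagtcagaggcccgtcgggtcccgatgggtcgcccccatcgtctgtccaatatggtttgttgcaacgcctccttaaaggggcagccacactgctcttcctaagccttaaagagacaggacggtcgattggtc
FSTL1: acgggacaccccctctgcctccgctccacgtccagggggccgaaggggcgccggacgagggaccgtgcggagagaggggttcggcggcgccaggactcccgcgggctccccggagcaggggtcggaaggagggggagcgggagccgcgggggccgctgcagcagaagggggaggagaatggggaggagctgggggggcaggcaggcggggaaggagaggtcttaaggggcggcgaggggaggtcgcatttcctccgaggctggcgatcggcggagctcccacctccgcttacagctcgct
AREG: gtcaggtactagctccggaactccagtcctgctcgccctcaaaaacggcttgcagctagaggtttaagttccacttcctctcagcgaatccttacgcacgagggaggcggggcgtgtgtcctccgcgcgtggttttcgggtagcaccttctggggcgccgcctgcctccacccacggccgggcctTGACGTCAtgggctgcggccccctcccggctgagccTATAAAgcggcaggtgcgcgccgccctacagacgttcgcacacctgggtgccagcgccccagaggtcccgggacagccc
Only AREG held a match, the cyclic AMP response element at -65 to -58 and the TATA box at -29 to -24 from the start. Of 35116 promoters in the table, 1.85% hold the cyclic AMP response element, 11.5% the TATA box, 7.71% the AP-1 site, 7.26% the E-box and 6.63% the p53 half-site. These matches are letters in a window and describe no binding. KRT23 has no entry in that table.

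Of the 12 higher genes of the rule, CTPS1, which encodes CTP synthase, was at 18.5 and 17.4 FPKM with both siRNAs and at 13.2 and 12.9 FPKM with p53 siRNA (log2 difference 0.43 ± 0.10). METTL1, the gene of a tRNA 7-methylguanosine methyltransferase, was at 42.6 and 33.2 FPKM against 21.0 and 22.3 FPKM (0.77 ± 0.18). FTO, an RNA demethylase gene, was at 12.4 and 11.4 FPKM against 7.65 and 8.60 FPKM (0.50 ± 0.12). In these 3 genes the replicates within each group lay closer together than the groups. CYB5R1, a cytochrome b5 reductase gene, was at 14.4 and 13.7 FPKM against 9.32 and 10.2 FPKM, and the zinc finger gene ZNF121 at 5.77 and 4.87 FPKM against 3.40 and 2.86 FPKM. Mitochondrial genes among the 12 were TIMM21, of the inner membrane import machinery, at 8.63 and 8.41 FPKM against 5.58 and 5.48 FPKM, CHCHD3, of the cristae organising complex, at 84.7 and 70.6 FPKM against 57.3 and 58.1 FPKM, and ATP5C1, the gamma subunit gene of ATP synthase, at 292 and 280 FPKM against 226 and 239 FPKM. PMM2, a phosphomannomutase gene of glycosylation, was at 26.8 and 22.9 FPKM against 17.6 and 16.4 FPKM. The readthrough NME1-NME2 shares its reads with its parent genes and was at 205 and 156 FPKM against 104 and 125 FPKM. SLC51A, an organic solute transporter gene, was at 5.64 and 1.74 FPKM against a listed 0 and 0.727 FPKM, and LANCL2 at 4.92 and 2.98 FPKM against 2.06 and 1.80 FPKM. Their replicates with both siRNAs were far apart.

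**Figure D3:**
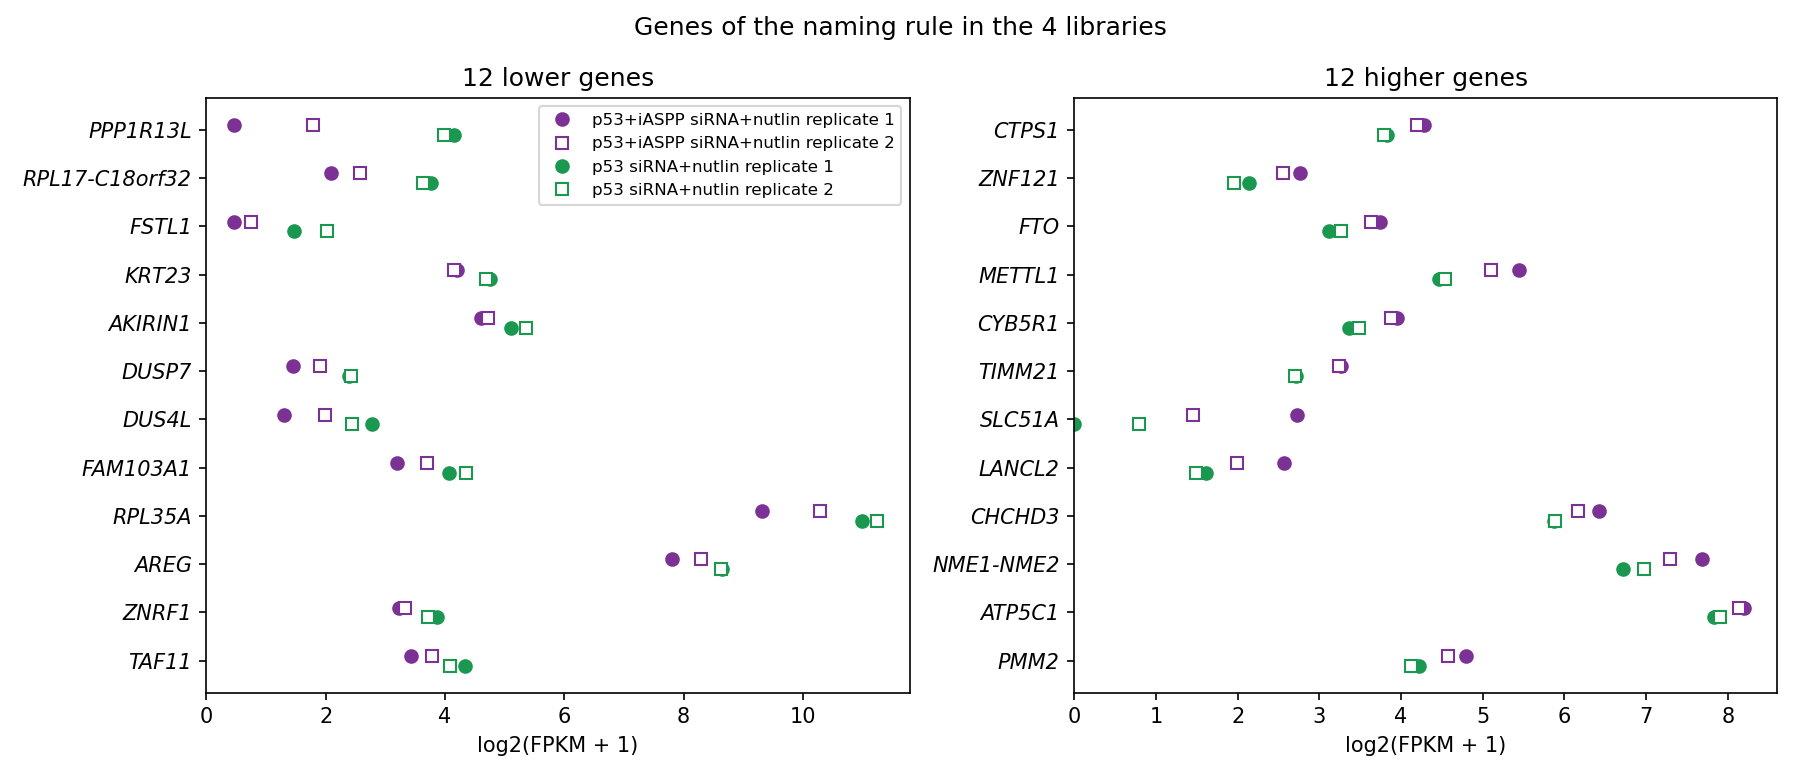
Log2(FPKM + 1) in the 4 libraries for the 12 lower and 12 higher genes of the naming rule, both groups in colour, replicate 1 filled and replicate 2 open. The rule required that the groups do not overlap, and PPP1R13L, from 0.378 and 2.45 FPKM to 16.8 and 14.9 FPKM, stands furthest apart.

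The p53 pathway gave few differences between the groups in these p53-depleted cells. Of 149 listed p53 activated targets 124 could be tested, and 0 rose or fell past the threshold. Their median log2 difference was 0.04, 0.02 in the replicate 1 pair and 0.08 in the replicate 2 pair. The libraries did not overlap for 22 that were higher (17.7%, all genes 13.0%) and 6 that were lower (4.84%, all genes 12.8%). TRIAP1, an inhibitor of apoptosome assembly, was at 67.9 and 65.0 FPKM against 52.9 and 49.0 FPKM (log2 difference 0.38 ± 0.11). The nuclease gene AEN was at 18.9 and 17.6 FPKM against 11.5 and 14.0 FPKM (0.49 ± 0.15). SYTL1, a vesicle trafficking gene, was at 10.5 and 7.60 FPKM against 5.59 and 5.65 FPKM (0.59 ± 0.22). Each of these 3 was higher in both pairs.

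Growth arrest and apoptosis targets, shorter lists that share members with the former, gave 3 of 17 (17.6%) and 5 of 22 (22.7%) higher without overlap, against 13.0% of all genes, and 0 and 1 (4.55%) lower, against 12.8%. BTG2, an antiproliferative gene, was at 14.3 and 15.8 FPKM against 6.16 and 12.3 FPKM (0.72 ± 0.32), and PLK2, a polo-like kinase gene, at 38.4 and 42.5 FPKM against 30.5 and 36.3 FPKM (0.27 ± 0.11). PMAIP1, which encodes the BH3-only protein NOXA, was at 66.6 and 56.4 FPKM against 45.4 and 47.9 FPKM (0.39 ± 0.17). FAS, the death receptor gene, was at 17.0 and 13.9 FPKM against 10.1 and 12.3 FPKM. By contrast BAX was at 76.2 and 123 FPKM against 90.5 and 135 FPKM, and BBC3, which encodes PUMA, at 6.25 and 10.8 FPKM against 9.25 and 11.2 FPKM. For BAX and BBC3 the groups overlapped and replicate 2 was the higher in each. DDIT4, an mTORC1 inhibitor gene, was among the 6 lower ones, at 35.9 and 43.8 FPKM against 58.1 and 46.4 FPKM.

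Among genes of p53 control, of 19 tested p53 regulators 1 was higher and 1 lower without overlap (5.26% each, all genes 13.0% and 12.8%), and the median was -0.02. RCHY1, an E3 ligase gene for p53, was at 11.5 and 12.04 FPKM against 9.81 and 10.5 FPKM. SIRT1, a p53 deacetylase gene, was at 4.24 and 5.53 FPKM against 5.88 and 6.01 FPKM.

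Cell cycle lists differed between the replicate pairs more than between the groups. The 40 DNA replication and G1/S genes had a median of -0.15 in the replicate 1 pair and 0.36 in the replicate 2 pair, and the 39 G2/M genes of -0.09 and 0.24. Within p53 siRNA+nutlin, replicate 2 was higher than replicate 1 for 0 of 40 and 1 of 39, and with both siRNAs for 14 and 15. TYMS, thymidylate synthase, was at 159 and 163 FPKM against 138 and 126 FPKM (0.29 ± 0.09), and CCND1, cyclin D1, at 76.6 and 80.5 FPKM against 61.4 and 59.8 FPKM (0.37 ± 0.12). These 2 were the only members of the G1/S list whose groups did not overlap. The histone HIST1H3D was listed at 0 in both p53 siRNA+nutlin libraries, and also in 5 libraries of other groups, against 37.3 and 27.0 FPKM with both siRNAs.

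The genes of oxidative phosphorylation encoded in the nucleus had the highest share of members that were higher without overlap among the lists. Of 36, 16 were higher (44.4%, all genes 13.0%) and 1 was lower, with a median of 0.10, 0.14 in the replicate 1 pair and 0.07 in the replicate 2 pair. These differences were small and 0 passed the threshold; at an unadjusted limma p under 0.05 there were 6, all higher, where 2.19% of all genes were higher and 2.45% lower. UQCRQ, a complex III subunit gene, was at 581 and 568 FPKM against 436 and 503 FPKM (0.29 ± 0.09), and NDUFB10, of complex I, at 400 and 358 FPKM against 299 and 318 FPKM (0.29 ± 0.10). ATP5O was at 513 and 499.9 FPKM against 380 and 488 FPKM. The median of the same list over the 3 other backgrounds was -0.05, and 5 of 16 reference genes (31.2%) were also higher without overlap and 0 lower, with a median of 0.08. Scaling the libraries by the median of ratios moved all differences up by 0.02, and the list to 0.13. The part of the library scaling in this difference was not tested beyond that value.

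Lists with lower medians were led by amino acid and stress genes. Of 29 ATF4 and ER stress genes, 0 were higher and 8 lower without overlap (27.6%, all genes 12.8%), with a median of -0.27, -0.35 and -0.08 in the replicate pairs. MTHFD2, an enzyme gene of mitochondrial folate metabolism, was at 76.8 and 92.7 FPKM against 134 and 107 FPKM (-0.50 ± 0.18). HERPUD1, of ER-associated degradation, was at 26.0 and 27.2 FPKM against 46.4 and 31.8 FPKM (-0.52 ± 0.19), and SLC7A5, a large neutral amino acid transporter gene, at 45.0 and 46.7 FPKM against 96.8 and 49.9 FPKM. In these 3 genes p53 siRNA+nutlin replicate 1 was the highest of the 4 libraries, and without it the list's median was -0.03.

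Of 26 cholesterol synthesis genes 5 were lower without overlap (19.2%, all genes 12.8%) and 1 was higher (3.85%, all genes 13.0%), with a median of -0.26, -0.35 and -0.16 in the pairs. INSIG1, which retains the SREBP escort in the ER, was at 24.7 and 50.1 FPKM against 68.9 and 96.5 FPKM (-1.19 ± 0.43). HMGCS1, HMG-CoA synthase, was at 22.9 and 52.96 FPKM against 47.6 and 59.7 FPKM, so its groups overlapped. Without p53+iASPP siRNA+nutlin replicate 1 the median of the list was -0.01. Of 31 hypoxia and glycolysis genes 8 were lower without overlap (25.8%, all genes 12.8%) and 4 higher (12.9%, all genes 13.0%), with a median of -0.07. NDRG1 was at 15.6 and 40.5 FPKM against 40.9 and 66.5 FPKM (-1.02 ± 0.36), and VEGFA, the vascular growth factor gene, at 13.01 and 14.5 FPKM against 25.3 and 18.8 FPKM. ALDOA and PKM of glycolysis were among the 4 higher ones.

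RelA is a known partner of iASPP. Of 23 tested NF-kB targets, 4 were higher and 3 lower without overlap (17.4% and 13.0%), close to the 13.0% and 12.8% of all genes, with a median of -0.12, -0.27 and 0.06 in the pairs. NFKBIE, an NF-kB inhibitor gene, was at 2.95 and 4.34 FPKM against 9.24 and 6.74 FPKM (-0.95 ± 0.27). RELA itself was at 20.5 and 25.5 FPKM against 27.6 and 25.6 FPKM. CYLD, a deubiquitinase gene that restrains the pathway, was at 1.91 and 2.99 FPKM against 1.83 and 1.77 FPKM, and CXCL8 at 1.92 and 7.63 FPKM against 5.71 and 8.67 FPKM. Interferon response genes numbered 1 higher and 3 lower of 20 (5.0% and 15.0%, all genes 13.0% and 12.8%), with a median of -0.09. IFI35 was at 0.956 and 3.08 FPKM against 4.18 and 4.93 FPKM, and ISG15, the ubiquitin-like modifier gene, at 171 and 195 FPKM against 207 and 246 FPKM.

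iASPP is also known for its place at epithelial cell junctions. Of 32 junction and keratin genes 3 were higher and 5 lower without overlap (9.38% and 15.6%, all genes 13.0% and 12.8%), with a median of -0.09. At an unadjusted limma p under 0.05 there were 0 higher and 5 lower, where 2.19% and 2.45% of all genes were. Beside KRT23 these were OCLN, occludin, at 4.97 and 6.38 FPKM against 8.57 and 7.71 FPKM (-0.46 ± 0.17), CLDN7 at 103 and 104 FPKM against 129 and 122 FPKM (-0.28 ± 0.13), CLDN4 and ITGA6. CLDN4 was at 31.6 and 44.1 FPKM against 43.1 and 60.1 FPKM, and its groups overlapped. Of 19 mesenchymal and actin genes 5 were higher and 2 lower without overlap (26.3% and 10.5%, all genes 13.0% and 12.8%). The actin-binding caldesmon gene CALD1 was at 18.4 and 21.6 FPKM against 25.6 and 23.5 FPKM, and VIM, vimentin, at 1.14 and 1.46 FPKM against 0.748 and 0.523 FPKM.

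Among 51 cytoplasmic ribosomal protein genes 0 were higher and 8 lower without overlap (15.7%, all genes 12.8%), and their median was -0.05, 0.09 in the replicate 1 pair and -0.17 in the replicate 2 pair. RPS24 was at 1603 and 1965 FPKM against 2160 and 2488 FPKM (-0.39 ± 0.10). RPL3 was at 1837 and 2412 FPKM against 2578 and 3005 FPKM (-0.40 ± 0.11), and RPL12 at 5413 and 6171 FPKM against 7037 and 7678 FPKM (-0.35 ± 0.10). These 3 were lower in both pairs while the list as a whole changed sign between them, and ribosomal protein genes have processed copies that can share reads. Ribosome biogenesis genes numbered 1 higher and 1 lower of 35 without overlap (2.86% each, all genes 13.0% and 12.8%). Of 28 immediate early and AP-1 genes 2 were higher and 6 lower without overlap (7.14% and 21.4%, all genes 13.0% and 12.8%), with a median of -0.14. Values for the list include KLF2 at 8.33 and 10.9 FPKM against 19.0 and 23.4 FPKM, JUNB at 25.1 and 34.8 FPKM against 44.1 and 40.4 FPKM, and DUSP1 at 6.88 and 8.11 FPKM against 14.0 and 8.91 FPKM. Of 27 NRF2 targets 5 were higher and 2 lower without overlap (18.5% and 7.41%, all genes 13.0% and 12.8%), with a median of 0.04 and with TXN, thioredoxin, at 978 and 979 FPKM against 747 and 858 FPKM.

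**Figure D4:**
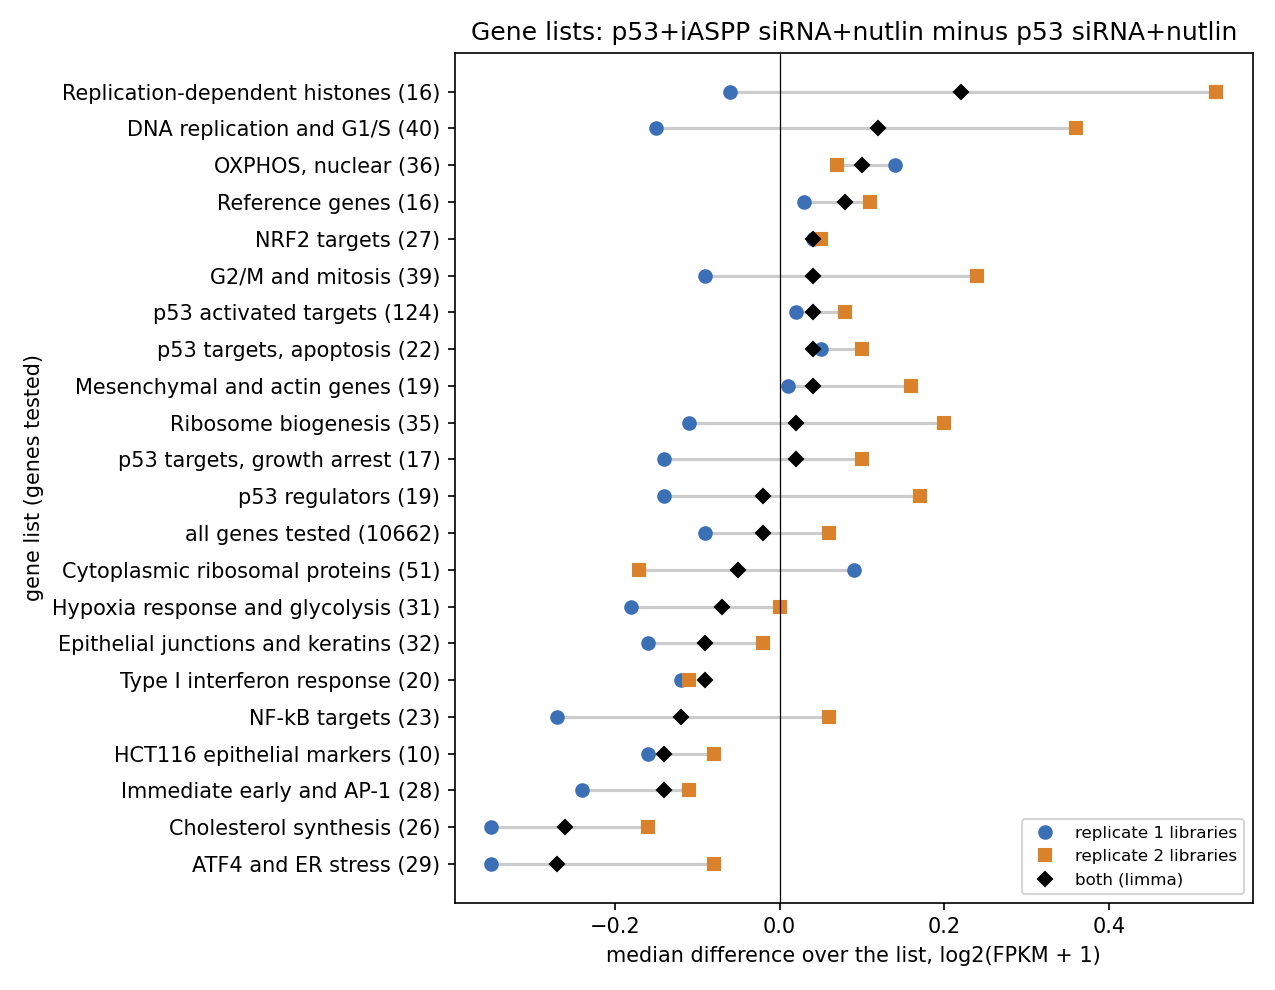
Median difference in log2(FPKM + 1) between p53+iASPP siRNA+nutlin and p53 siRNA+nutlin over each gene list, with the number of genes tested, for the replicate 1 libraries (blue circles), the replicate 2 libraries (orange squares) and both (black diamonds). The oxidative phosphorylation list is above 0 in both pairs at 0.14 and 0.07, the ATF4 and cholesterol lists are below 0 in both, and the cell cycle lists change sign between the pairs.

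The iASPP siRNA was also used in 3 backgrounds that share no library with this comparison, namely without p53 siRNA or nutlin, with p53 siRNA alone, and with nutlin alone. The mean of its effects there was tested in the same limma fit, and 544 genes rose (5.10%) and 487 fell (4.57%). Their total of 1031 was 1884 with sample weights and 437 to 2141 with 1 library left out, lowest without p53+iASPP siRNA replicate 1 and highest without iASPP siRNA+nutlin replicate 2. Of the 544, 428 (78.7%) were also higher in p53-depleted nutlin-treated cells, where 46.8% of all genes were higher, and 215 without overlap against 14 lower without overlap. Their median log2 difference was 0.14 here and 0.42 there. Of the 487, 428 (87.9%) were also lower, where 5662 of all 10662 genes were lower, and 248 without overlap against 7 higher without overlap. The median of the 487 was -0.24 here and -0.47 there. Over all genes 13.0% were higher and 12.8% lower without overlap here. Each replicate pair showed the direction, with medians of 0.11 and 0.18 for the former genes and -0.36 and -0.12 for the latter.

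The 3 other backgrounds include iASPP siRNA+nutlin replicate 2, which differs from its own replicate as the replicate 2 libraries here do. Without the replicate 2 libraries of these 3 nutlin groups, 1293 genes rose and 1924 fell in the other backgrounds, and 931 and 1434 of them had the same direction here, where all 4 libraries were kept. Over all 10662 genes, 4987 were higher and 5662 lower here. The medians of the rising and the falling genes here were 0.11 and -0.14, against -0.015 over all genes.

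Genes that did not overlap in any of the 4 backgrounds and were higher in all numbered 169 (1.59%), and those lower in all numbered 158 (1.48%). PPP1R13L, FSTL1, KRT23, AKIRIN1, FAM103A1, RPL35A, AREG and TAF11 of the 12 lower genes were among the latter. FSTL1 was at 0.0770 to 0.682 FPKM in all 8 libraries with iASPP siRNA and at 0.942 to 4.62 FPKM in all 8 without it, and it fell in the 3 other backgrounds (log2 change -1.33, limma adjusted p = 0.00048). RPL35A was at 519 to 1250 FPKM with iASPP siRNA and at 1675 to 2432 FPKM without it, and it fell by 1.61 there (limma adjusted p = 0.000729). AREG was highest with nutlin alone, at 1027 and 942 FPKM, and at 472 and 391 FPKM with nutlin and iASPP siRNA. It fell by 0.64 over the 3 other backgrounds (limma adjusted p = 0.00146). ABI2, of the WAVE actin regulator complex, was at 0.938 and 1.89 FPKM against 3.49 and 2.93 FPKM here and fell by 1.00 there, and SUPT4H1, a transcription elongation factor gene, was at 44.6 and 56.5 FPKM against 83.7 and 79.5 FPKM here and fell by 0.45 there.

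ZNF121, CYB5R1 and NME1-NME2 of the 12 higher genes were higher in all 4 backgrounds. CDK6, a G1 kinase gene, was at 2.95 and 2.77 FPKM against 1.60 and 1.502 FPKM here (log2 difference 0.60 ± 0.19) and rose by 1.06 there (limma adjusted p = 0.000493). CCND1, its cyclin partner, rose by 1.13 there against a difference of 0.37 here (limma adjusted p there = 2.77e-05). Of the p53 targets, BTG2 rose by 1.53, PMAIP1 by 1.00, PLK2 by 0.80, AEN by 0.69 and TRIAP1 by 0.50 there, and the first 4 were higher without overlap in all 4 backgrounds. Each of these p53 targets differed most without p53 siRNA or nutlin. TRIAP1 differed by 1.23 in that background, 0.15 with p53 siRNA alone and 0.125 with nutlin alone. Of the 124 p53 activated targets 18 rose and 1 fell in the other backgrounds, where 5.10% and 4.57% of all genes did. Their median there was 0.17 against 0.04 here, and 2 of these backgrounds had no p53 siRNA. By background the median was 0.60 without p53 siRNA or nutlin, 0.06 with p53 siRNA alone and -0.05 with nutlin alone.

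**Figure D5:**
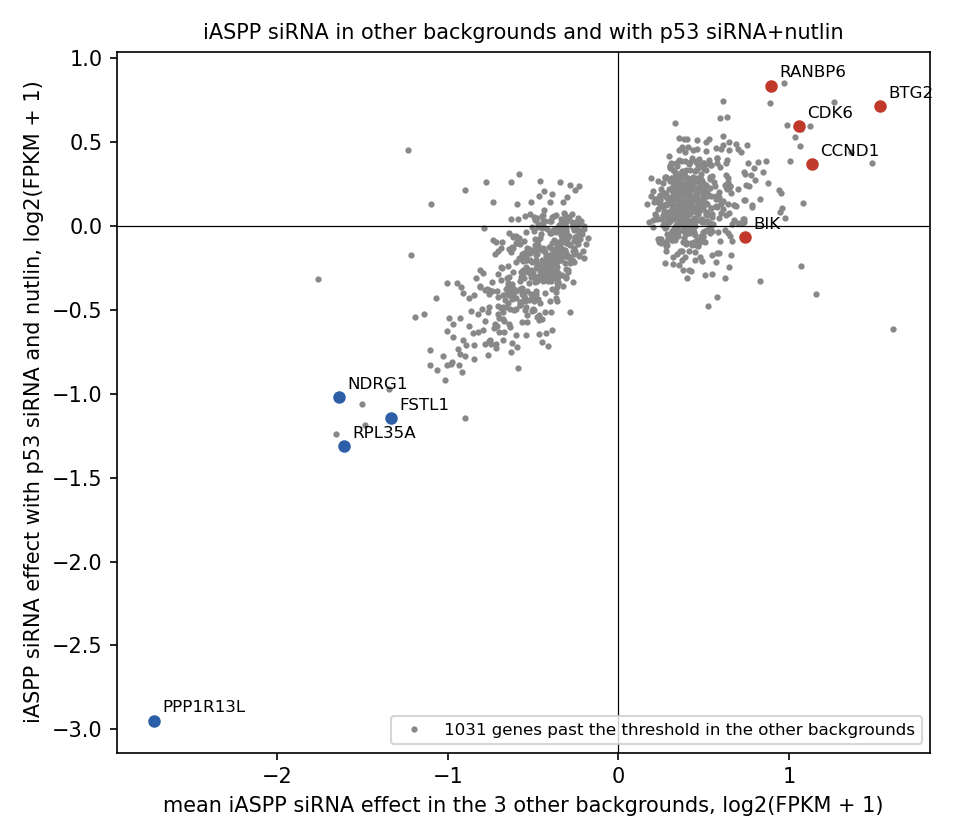
Mean iASPP siRNA effect over the 3 other backgrounds (horizontal) and the effect with p53 siRNA and nutlin (vertical), in log2(FPKM + 1), for the 1031 genes past the threshold in the former, with some named genes coloured. Most points lie in the 2 quadrants of shared sign, 428 of 544 to the right and 428 of 487 to the left, and BIK is an exception.

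Whether the effect of iASPP siRNA under nutlin differed with p53 depletion was tested as an interaction. By limma 0 genes passed (0.00%), the smallest adjusted p was 0.470, and 774 (7.26%) had an unadjusted p under 0.05. The count was 99 without iASPP siRNA+nutlin replicate 1, 22 without its replicate 2, 12 without p53+iASPP siRNA+nutlin replicate 2, and 274 without the replicate 2 libraries of the 3 nutlin groups with p53 or iASPP siRNA. CDKN3, a CDK phosphatase gene, was at 5.72 and 4.89 FPKM with nutlin and CTR siRNA and at 13.8 and 16.5 FPKM with nutlin and iASPP siRNA. With p53 siRNA and nutlin it was at 77.6 and 79.6 FPKM, and at 61.1 and 84.3 FPKM when iASPP siRNA was added (interaction -1.48, limma adjusted p = 0.47). AURKB, the mitotic kinase gene, was at 3.81 and 1.96 FPKM, 9.98 and 18.2 FPKM, 97.1 and 70.3 FPKM, and 91.1 and 90.8 FPKM in the same order (-1.81). Both genes were thus higher with iASPP siRNA where nutlin had left them low, and their groups overlapped where p53 siRNA had kept them high. MYD88, a Toll-like receptor adaptor gene, was at 4.12 and 4.97 FPKM and at 10.7 and 9.76 FPKM without p53 siRNA, and at 9.17 and 7.72 FPKM and at 7.70 and 7.70 FPKM with it (-1.14). On the other side, GABRD was at 29.2 and 18.4 FPKM and at 8.97 and 7.43 FPKM without p53 siRNA, and at 5.88 and 6.62 FPKM and at 7.64 and 7.16 FPKM with it (1.61). The calcium-binding protein gene S100A6 was at 14880 and 14950 FPKM and at 10250 and 9033 FPKM without p53 siRNA, and at 5476 and 6077 FPKM and at 5257 and 5046 FPKM with it (0.47).

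Whether the effect in p53-depleted cells differed with nutlin was tested in the same way. The readthrough RPL17-C18orf32 was the 1 gene that passed (0.00938%), and 633 (5.94%) had an unadjusted p under 0.05. It was at 3.38 and 3.53 FPKM with p53 siRNA and at 6.72 and 7.92 FPKM with both siRNAs when nutlin was absent, and at 12.6 and 11.4 FPKM and at 3.23 and 4.94 FPKM when it was present (interaction -2.27, limma adjusted p = 0.0445). The call ended with sample weights, with no filter and with the compared groups alone. It also ended in each setting that left out a p53 siRNA or p53 siRNA+nutlin library, and without p53+iASPP siRNA replicate 2 or p53+iASPP siRNA+nutlin replicate 1. BIK, a BH3-only gene, was at 32.5 and 32.1 FPKM and at 74.3 and 60.4 FPKM without nutlin, and at 47.0 and 55.6 FPKM and at 44.7 and 53.3 FPKM with it (-1.09). EPHA2, the ephrin receptor gene, was at 12.8 and 12.1 FPKM and at 23.6 and 23.7 FPKM without nutlin, and at 18.8 and 18.9 FPKM and at 16.4 and 18.9 FPKM with it (-0.97). Without nutlin these 2 were higher with iASPP siRNA in p53-depleted cells, and with nutlin their groups overlapped. LDHA, lactate dehydrogenase, was at 1604 and 1528 FPKM and at 1046 and 1044 FPKM without nutlin, and at 955 and 1009 FPKM and at 911 and 950.2 FPKM with it (0.51). ZNF354B was at 11.8 and 12.3 FPKM and at 3.12 and 3.58 FPKM without nutlin, and at 4.52 and 3.18 FPKM and at 3.19 and 4.43 FPKM with it (1.58). None of these 4 passed the adjustment.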

How the data were processed

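Polyadenylated RNA of HCT116 cells was sequenced in 16 libraries, 2 for each of 8 groups. The authors deposited FPKM per gene. The submitters' processing notes name edgeR and the build GRCh38; an aligner, a counting program and an annotation are not given in the sources. Columns were matched to samples by title. For 28 symbols turned into dates and 210 blank ones, names came from GENCODE release 29, as did gene positions. Mitochondrially encoded genes are not analysed here, and some genes that the rule or the lists hold are not reported here.

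Differences of log2(FPKM + 1) were tested by limma 3.58.1 (R 4.3.3) for the 10662 genes that averaged 1 FPKM or more, in one fit of 8 group means with an intensity trend (8 residual and 3.15 prior degrees of freedom), with Benjamini-Hochberg adjustment over all genes and a threshold of 0.05. A fold change on this scale understates the change of genes with low values. With 2 libraries a group the smallest exact p is 0.333, so exact tests were not used. The fit was also run on simulated data with independent noise, without deviations shared by same-numbered libraries, and no result here rests on that run. Summaries used pandas 2.3.3 in Python 3.11.15. Raw counts were not used; relative depth came from the most frequent ratio of values of weakly expressed genes between libraries.

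Groups are said not to overlap where both libraries of one lie above both of the other. The naming rule took PPP1R13L, MDM2 and CDKN1A, the 12 genes in each direction with the smallest p among non-overlapping genes (those that passed first), 3 genes of each list, 5 of each interaction in each direction, and 5 for the replicates. The members, the 25 gene lists and the rule were chosen with earlier results of these data known. The genes described as higher or lower in all 4 backgrounds and some further list members were chosen after their values were seen. The mean effect over the other 3 backgrounds was added after the data were examined. Alternatives were a pseudocount of 0.1, no filter, median-of-ratios scaling, a replicate block, sample weights, a fit on the compared groups alone and libraries left out.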

Additional observations from a re-analysis of the deposited data

Results flagged for a closer look

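The readthrough gene RPL17-C18orf32 differed between the 2 nutlin states in its response to iASPP siRNA in p53-depleted cells (interaction -2.27 on the log2 scale, limma adjusted p = 0.0445). It was higher with iASPP siRNA in both libraries without nutlin, at 6.72 and 7.92 FPKM against 3.38 and 3.53 FPKM, and lower in both with nutlin, at 3.23 and 4.94 FPKM against 12.6 and 11.4 FPKM. The call was lost with sample weights, no filter and the compared groups alone, and in 6 of 8 settings that left out 1 library of these 4 groups. No other gene of the 10662 tested passed that test, and reads of RPL17 and C18orf32 can count towards it.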

How the results depend on the processing

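The count of genes past the threshold in p53-depleted nutlin-treated cells, 1 as reported, was 0 with a pseudocount of 0.1, with no filter beyond a mean above 0, with the replicate block and with sample weights by group, and 318 (80 higher, 238 lower) without the replicate 2 libraries of the 3 nutlin groups with p53 or iASPP siRNA, where the spread comes from the closer pairs alone and each group compared is a single library assumed to vary like them. With 1 library left out, when the lone library of a group is assumed to vary like the others, it was 0 to 16, the latter without p53+iASPP siRNA+nutlin replicate 2, all lower. The fit on the compared groups alone also passed 1 gene, the histone HIST1H3D in place of PPP1R13L. The p53 by iASPP interaction, 0 as reported, gave 1 with a pseudocount of 0.1, 274 without the 3 replicate 2 libraries and 0 to 99 with 1 left out: 99 and 22 without iASPP siRNA+nutlin replicate 1 and replicate 2, and 12 without p53+iASPP siRNA+nutlin replicate 2. The nutlin by iASPP interaction, 1 as reported, gave 2 with a pseudocount of 0.1, 0 with no filter, the replicate block, sample weights and the compared groups alone, 116 without the 3 libraries, and 0 to 4 with 1 left out. The effect over the other 3 backgrounds, 1031 genes, gave 1024 with the replicate block, 1884 with sample weights, 3217 without the 3 libraries, and 437 to 2141 with 1 left out, the extremes without p53+iASPP siRNA replicate 1 and without iASPP siRNA+nutlin replicate 2. Of 66 gene results 64 kept their direction in every setting. A difference of groups chosen for not overlapping cannot change direction when libraries are left out or the pseudocount is changed. For such genes this count is therefore no sign of robustness. With 1 library left out, the log2 difference of MDM2 ran from -0.99 to 0.72 and of TP73 from -0.29 to 0.03. The cause was not tested. Replicate numbers share no stated culture or day; deviations of same-numbered libraries in the 2 groups correlated at 0.304 over all genes and 0.394 over genes of at least 20 FPKM, and the replicate block changed the counts only as given here. Relative depth, 0.697 to 1.12 in replicate 1 against 3.10 to 6.50 in replicate 2, limits genes of few FPKM most.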
